A study of Mus musculus with 21 samples.

Results

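The glomerular basement membrane is the sheet of matrix between the podocytes and the endothelium of the glomerulus, and it is part of the barrier that keeps protein out of the urine. Its type IV collagen is built from trimers of chains. *Col4a1* and *Col4a2* encode the chains of the trimer found in most basement membranes, while *Col4a3*, *Col4a4* and *Col4a5* encode those of the trimer of the mature glomerular basement membrane, which podocytes produce and whose loss causes Alport syndrome. *Lama5*, *Lamb2* and *Lamc1* encode the alpha, beta and gamma chains of the laminin of the mature membrane, *Agrn* encodes agrin, its main heparan sulfate proteoglycan, and *Nid1* encodes nidogen-1, which links laminin to collagen IV. These 10 genes were taken by name, from 27179 genes listed in every count table, and were read in all 21 libraries.

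The libraries were of mRNA from podocyte fractions, which were collected from digested kidney cortex of wildtype male C57BL/6J mice with antibodies to nephrin and magnetic beads. Untreated young mice of 4 months gave 6 libraries. Middle-aged mice of 19.5 months that had received saline gave 7 libraries, and middle-aged mice of the same age that had received MCC950, an inhibitor of the NLRP3 inflammasome (NLRP3i), gave 8 libraries. MCC950 was injected intraperitoneally at 10 mg/kg in saline over 6 weeks. The young mice were not injected, so age and the saline injections cannot be told apart. Fractions were taken from individual mice, but the number of young mice in the methods is not the number of young libraries. Whether each young library is a separate mouse could therefore not be checked, and p-values measure the spread between these libraries.

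Total counts ranged from 27375870 to 36827823 in the young group, from 45772937 to 84876399 in the saline group and from 35440472 to 58247271 in the MCC950 group. Every saline library was therefore deeper than every young library. Mitochondrial genes took 69.3% ± 9.82 (SD, n = 6) of the counts in young mice, 69.6% ± 5.32 (SD, n = 7) in saline-treated mice and 56.4% ± 4.46 (SD, n = 8) in MCC950-treated mice. The fractions held podocytes among other kidney cells. The 15 podocyte markers summed to 325 to 1895 CPM (counts scaled to the size of the library) over the libraries, and the 10 proximal tubule markers to 2053 to 9737 CPM. Of the podocyte markers, only *Lmx1b* was at 0 in any library, namely young replicate 5. *Nphs1*, which encodes the nephrin that the antibodies bind, had a median of 41.4 CPM in young mice, 6.48 CPM in saline-treated mice and 11.7 CPM in MCC950-treated mice.

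In RefSeq for GRCm38.p6, *Col4a1* (Entrez Gene 12826, chr8:11198423-11312889) and *Col4a2* (12827, chr8:11312805-11449287) lie head to head on chromosome 8. *Col4a3* (12828, chr1:82586921-82722059) and *Col4a4* (12829, chr1:82448419-82587034) lie head to head on chromosome 1. The other genes lie apart, with *Col4a5* (12830) at chrX:141475370-141689236 on the plus strand, *Lama5* (16776) at chr2:180176373-180225904 on the minus strand, *Lamb2* (16779) at chr9:108479847-108490530 on the plus strand, *Lamc1* (226519) at chr1:153218922-153332786 on the minus strand, *Agrn* (11603) at chr4:156165290-156197533 on the minus strand and *Nid1* (18073) at chr13:13437602-13512275 on the plus strand. Each value below counts reads over the exons of the whole gene. The annotated starts used for the promoter windows of *Col4a1* (minus strand) and *Col4a2* (plus strand) were 21 bases apart, and the start used for *Col4a4* (minus strand) was 72 bases from the first base of *Col4a3* (plus strand). The promoter windows, from 250 bases before to 50 bases after the start, are shown for these pairs because their members are compared with each other throughout. Windows were matched for 8 of the 10 genes, and those of *Col4a3* and *Lamc1* were not matched. The windows of *Col4a1* (chr8:11312777-11313076, minus strand) and *Col4a2* (chr8:11312555-11312854, plus strand) overlapped over 78 bases, at chr8:11312777-11312854. The window of *Col4a4* was chr1:82586800-82587099 (minus strand). Each is printed 5′ to 3′ on its own strand. Capitals mark matches, on either strand, to the GC box GGGCGG or the CCAAT box CCAAT.
Col4a1: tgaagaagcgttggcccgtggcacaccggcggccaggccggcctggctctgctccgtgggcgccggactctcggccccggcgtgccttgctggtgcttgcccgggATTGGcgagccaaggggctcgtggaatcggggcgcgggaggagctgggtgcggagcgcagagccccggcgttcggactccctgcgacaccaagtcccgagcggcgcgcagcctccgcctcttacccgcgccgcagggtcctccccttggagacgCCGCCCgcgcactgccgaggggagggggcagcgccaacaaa
Col4a2: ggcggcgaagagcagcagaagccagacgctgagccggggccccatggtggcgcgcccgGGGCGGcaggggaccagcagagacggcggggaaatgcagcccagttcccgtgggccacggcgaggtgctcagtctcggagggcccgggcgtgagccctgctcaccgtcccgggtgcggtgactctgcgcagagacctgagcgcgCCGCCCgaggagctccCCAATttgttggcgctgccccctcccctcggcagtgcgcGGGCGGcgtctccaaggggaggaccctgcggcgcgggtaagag
Col4a4: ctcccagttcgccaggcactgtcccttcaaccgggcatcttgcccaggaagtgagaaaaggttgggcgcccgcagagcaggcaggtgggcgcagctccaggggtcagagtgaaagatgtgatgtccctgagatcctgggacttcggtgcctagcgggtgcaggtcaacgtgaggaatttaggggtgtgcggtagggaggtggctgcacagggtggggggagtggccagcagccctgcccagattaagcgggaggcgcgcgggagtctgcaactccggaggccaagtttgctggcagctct

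The *Col4a1* window held 1 GC box and 1 CCAAT box, and the *Col4a2* window held 3 GC boxes and 1 CCAAT box. One GC box was in the shared stretch and so was counted for both genes. The *Col4a4* window held neither. Over the 32851 promoter windows of the annotation, 35.7% held a GC box and 37.4% a CCAAT box, and 13.6% held the TATA box TATAAA, which none of these windows did. The *Col4a5* and *Nid1* windows each held 1 GC box and 1 CCAAT box, the *Lama5* window held 4 GC boxes, the windows at the annotated starts of *Agrn* held 12 and 2, and the *Lamb2* window held no match. A match is a run of letters and not a measured binding site.

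The first comparison, of saline-treated middle-aged mice with young mice, asked how the genes of this membrane differ with age. All 10 were lower in the middle-aged mice. Their log2 fold changes ran from −1.12 to −0.32, around a median of −0.82 (edgeR's quasi-likelihood test, adjusted p under 0.05 for each). Of all 16377 genes tested, 12.4% were called lower and 12.2% higher in this comparison, and the median log2 fold change of all of them was 0.02. For 7 of the 10 genes every saline library was below every young library, as it was for 4.86% of all genes tested. With the study's threshold of an unadjusted p of 0.05 and more than a 2-fold change, *Col4a1*, *Col4a3* and *Nid1* were the 3 genes called lower by edgeR, against 2.92% of all genes, and the same 3 were called by DESeq2, the tool of the study, against 3.13%. In bulk RNA from a mixed fraction, fewer cells that make these transcripts and less transcript per cell cannot be told apart. The sum of the podocyte markers was 853 to 1895 CPM in young mice and 325 to 617 CPM in saline-treated mice, and 14 of the 15 markers fell, with a median log2 fold change of −1.96. Markers of endothelium (9 of 10 lower, sums of 491 to 864 CPM against 275 to 413 CPM) and of mesangium and smooth muscle (8 of 9 lower, 193 to 279 CPM against 71.5 to 131 CPM) were also lower, as were 4 of 5 collecting duct markers (591 to 1346 CPM against 385 to 691 CPM). No marker of these 3 lists was at 0 in any library. Of the 10 proximal tubule markers none was called, with sums of 2053 to 8075 CPM and 2168 to 5307 CPM. The part of these shifts in the result was not tested.

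**Figure D1:**
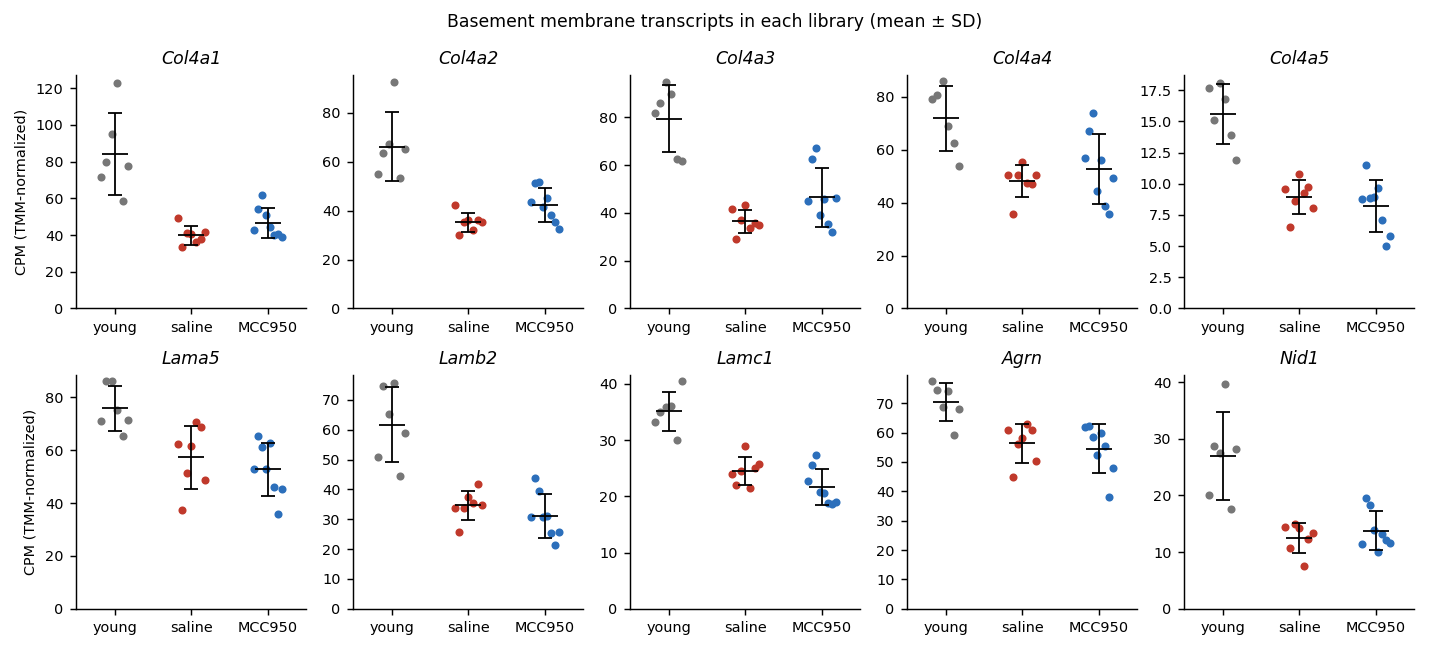
CPM of the 10 genes in each of the 21 libraries, 1 panel per gene with the CPM on the vertical axis, the groups young (n = 6), saline (n = 7) and MCC950 (n = 8) along the horizontal axis and the mean ± SD of each group in black. The saline points lie below every young point for 7 genes, and for *Col4a4*, *Lama5* and *Agrn* some of them reach the young range.

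*Col4a3* showed the steepest fall of the chains of the mature trimer. Its level was 61.9, 83.9 and 94.7 CPM (lowest, median and highest library) in young mice and 29.0, 35.8 and 43.3 CPM in saline-treated mice. Every saline library was below every young library, and the log2 fold change was −1.12 (SE 0.15, adjusted p = 4.29e-05). Its partner *Col4a4* went from 53.9, 74 and 85.9 CPM to 35.8, 50.3 and 55.3 CPM, and 6 of 7 saline libraries were below the lowest young library. The log2 fold change of *Col4a4* was −0.58 (SE 0.15, adjusted p = 0.00804). *Col4a5*, the X-linked member of the trimer and the lowest of the 10 genes in CPM, went from 11.9, 15.9 and 18.1 CPM to 6.57, 9.26 and 10.8 CPM. Here the groups did not overlap, with a log2 fold change of −0.80 (SE 0.16, adjusted p = 0.00105).

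The chains of the general collagen IV trimer fell without overlap of the groups. *Col4a1* was at 58.6, 78.9 and 123 CPM in young mice and at 33.3, 40.5 and 49.5 CPM in saline-treated mice, a log2 fold change of −1.08 (SE 0.14, adjusted p = 3.4e-05). *Col4a2* was at 53.4, 64.4 and 92.6 CPM and at 29.9, 35.4 and 42.2 CPM in the same groups, a log2 fold change of −0.91 (SE 0.12, adjusted p = 4.06e-05). The highest young value of *Col4a2*, in replicate 4, stood apart from the other young libraries.

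The 3 laminin chains were all lower, and the differences between their fold changes were not themselves tested. *Lamb2*, whose loss causes Pierson syndrome, went from 44.5, 62.0 and 75.7 CPM in young mice to 25.7, 34.7 and 41.7 CPM in saline-treated mice, with no overlap and a log2 fold change of −0.83 (SE 0.15, adjusted p = 0.000562). *Lamc1*, the gamma chain of most laminins, went from 30.1, 35.5 and 40.5 CPM to 21.5, 24.5 and 28.9 CPM, also with no overlap and a log2 fold change of −0.52 (SE 0.10, adjusted p = 0.000599). *Lama5* went from 65.3, 73.3 and 86.0 CPM to 37.5, 61.5 and 70.6 CPM. In *Lama5* 5 of 7 saline libraries were below the lowest young library, and the log2 fold change of −0.40 (SE 0.14) was close to the threshold (adjusted p = 0.0428). Its call was lost with no filter on low counts (−0.39, adjusted p = 0.0609) and when any one of young replicates 1, 2 and 3, saline replicates 2 and 7 or MCC950 replicate 4 was left out (adjusted p 0.0502 to 0.07).

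The linker *Nid1* had one of the larger fold changes and the proteoglycan *Agrn* the smallest, a difference that was not itself tested. *Nid1* went from 17.7, 27.9 and 39.7 CPM in young mice to 7.61, 13.3 and 15.0 CPM in saline-treated mice, with no overlap and a log2 fold change of −1.11 (SE 0.19, adjusted p = 0.000272). *Agrn* went from 59.2, 71.4 and 77.7 CPM to 44.9, 58.3 and 62.8 CPM. Only 4 of 7 saline libraries were below the lowest young *Agrn* value, and its log2 fold change of −0.32 (SE 0.11, adjusted p = 0.0291) was the smallest of the 10 genes. Without young replicate 1, the call for *Agrn* was lost (−0.29, adjusted p = 0.0646).

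The next comparison, of MCC950 with saline in mice of the same age, asked whether inhibiting NLRP3 changes these genes. None of the 10 passed edgeR's test at an adjusted p of 0.05, and DESeq2 called none either. Over all 16377 genes, 11.9% were called higher and 4.86% lower in this comparison. At an unadjusted p under 0.05, *Col4a2* and *Col4a3* were the 2 genes with a difference, both with higher values under MCC950. The share of all genes at this looser threshold was not counted. It cannot be smaller than the shares called above, so no result is read from these 2 genes. The median log2 fold change was 0.04 (range −0.18 to 0.35), with 5 values above and 5 below zero. A p above the threshold does not show that the groups were alike, so the intervals are given for each gene.

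*Col4a3* had the largest difference, with 32.0, 45.4 and 67.1 CPM in MCC950-treated mice against the 29.0, 35.8 and 43.3 CPM of saline-treated mice. These ranges overlapped, and the log2 fold change was 0.35 (95% CI 0.06 to 0.65, adjusted p = 0.0934). MCC950 replicate 7 was below its group mean for all 10 genes, and without that library the log2 fold change of *Col4a3* was 0.42 and passed the test (adjusted p = 0.037). In the 20 other fits that left out 1 library *Col4a3* was not called. Over all such fits its log2 fold change went down to 0.26 and its adjusted p up to 0.201. *Col4a2* was at 32.6, 42.7 and 51.9 CPM under MCC950, a log2 fold change of 0.27 (95% CI 0.03 to 0.51, adjusted p = 0.112), and *Col4a1* was at 38.9, 43.7 and 61.8 CPM, a log2 fold change of 0.23 (95% CI −0.05 to 0.50, adjusted p = 0.254). Both overlapped the saline libraries.

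The intervals of the other members spanned or touched zero. For *Col4a4*, at 35.8, 52.8 and 73.8 CPM under MCC950, the log2 fold change was 0.13 (95% CI −0.16 to 0.42), and for *Nid1*, at 10.1, 12.6 and 19.5 CPM, it was 0.14 (95% CI −0.23 to 0.50). *Col4a5* was at 5.01, 8.81 and 11.5 CPM with a log2 fold change of −0.12 (95% CI −0.43 to 0.18). The MCC950 values of these 3 genes overlapped those of the saline libraries. In the laminin chains the log2 fold change was −0.12 (95% CI −0.40 to 0.16) for *Lama5*, at 35.7, 52.7 and 65.3 CPM, −0.16 (95% CI −0.45 to 0.14) for *Lamb2*, at 21.4, 30.7 and 43.7 CPM, and −0.18 (95% CI −0.37 to 0.00) for *Lamc1*, at 18.7, 20.7 and 27.3 CPM. *Agrn* was at 38, 56.9 and 62.3 CPM with a log2 fold change of −0.05 (95% CI −0.25 to 0.16), which turned to 0.01 without MCC950 replicate 7. Over the same 2 groups the podocyte marker sum was 325 to 617 CPM under saline and 441 to 741 CPM under MCC950, with 5 of 15 markers higher and a median log2 fold change of 0.48. Of the proximal tubule markers 7 of 10 were higher (median log2 fold change 0.97, sums of 2168 to 5307 CPM under saline and 3432 to 9737 CPM under MCC950), with none of them at 0 in any library, and 3 of 10 endothelium markers were lower (275 to 413 CPM and 226 to 440 CPM). The part of these shifts in these values was not tested.

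Set against the young mice, the MCC950-treated mice were lower for all 10 genes, with a median log2 fold change of −0.74 (range −0.99 to −0.37). In this comparison 16.5% of all genes tested were called lower and 21.8% higher, and 4.66% were lower without overlap. At the study's 2-fold threshold edgeR called 0 of the 10 genes lower, against 4.32% of all genes, while DESeq2 called 2, *Lamb2* (−1.04) and *Nid1* (−1.01), against 4.71%. The edgeR values of these genes were just short of 2-fold, at −0.99 and −0.97. Markers moved in this comparison too, with 14 of 15 podocyte markers lower (median log2 fold change −1.52, sums of 853 to 1895 CPM in young mice and 441 to 741 CPM with MCC950), as were all 10 of endothelium (median −1.26, 491 to 864 CPM and 226 to 440 CPM), all 9 of mesangium and smooth muscle (median −1.21, 193 to 279 CPM and 68.7 to 139 CPM) and all 5 of collecting duct (median −1.01, 591 to 1346 CPM and 234 to 656 CPM). Of the proximal tubule markers 7 of 10 were higher (median 0.73, 2053 to 8075 CPM and 3432 to 9737 CPM). The part of these shifts in the values of the 10 genes was not tested. For *Col4a2*, *Col4a5*, *Lamb2* and *Lamc1* the groups did not overlap. The largest difference was in *Lamb2* (−0.99, SE 0.15, adjusted p = 4.28e-05), and the smallest was in *Agrn* (−0.37, SE 0.10, adjusted p = 0.00742). The young libraries served in both comparisons of middle-aged with young mice, so the 2 sets of values are not independent. For *Col4a3* they were −1.12 with saline and −0.77 with MCC950, and for *Lamc1* they were −0.52 and −0.70.

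**Figure D2:**
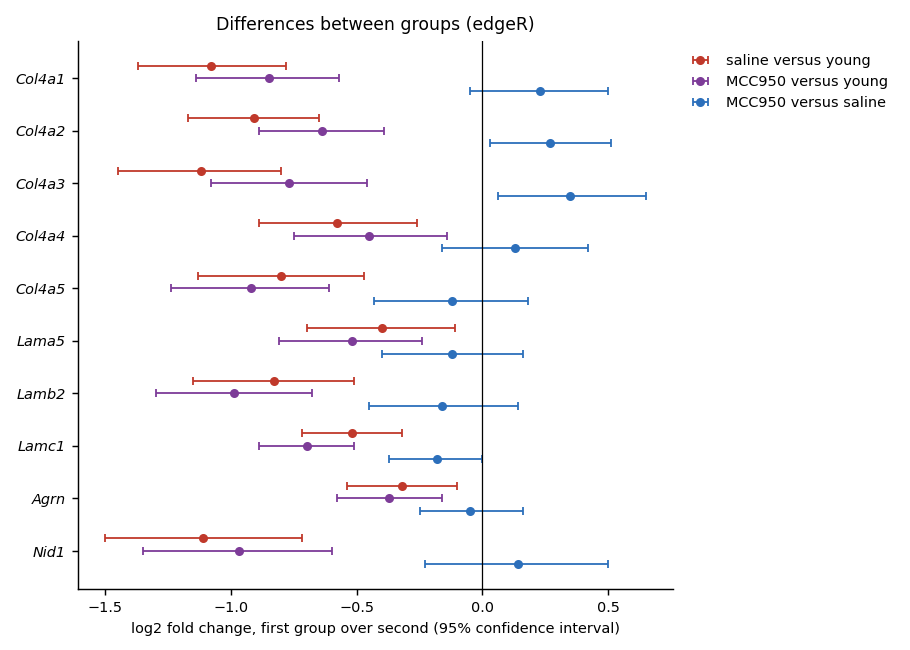
Log2 fold changes of the 10 genes (horizontal axis) in the 3 comparisons, with 95% confidence intervals from edgeR as bars. The values of both middle-aged groups against young mice lie below zero for every gene, from −1.12 for *Col4a3* to −0.32 for *Agrn* in saline-treated mice. Those of MCC950 against saline lie between −0.18 and 0.35.

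Levels of different genes were compared per kilobase of exon (CPM per kb). Bowtie2, named in the methods, does not split reads across introns, and the collagen IV genes have many short exons, so reads over exon junctions may be undercounted, which was not tested. In young mice *Col4a1* was highest at 11.3 CPM per kb ± 2.99 (SD, n = 6), followed by *Lamb2* at 10.1 ± 2.08, *Col4a2* at 10.0 ± 2.13 and *Col4a3* at 7.98 ± 1.40. *Agrn*, *Col4a4* and *Lama5* came next, at 7.58, 6.77 and 6.66 CPM per kb, then *Lamc1* at 4.25, *Nid1* at 3.89 and *Col4a5* at 2.32. Neighbours in this order overlapped between libraries, except *Lama5* and *Lamc1*. In saline-treated mice *Agrn* led at 6.07 CPM per kb ± 0.704 (SD, n = 7), *Lamb2* followed at 5.69 ± 0.792, and *Col4a3* was 7th of the 10 at 3.66 ± 0.484. There, only *Lamc1* and *Nid1* were neighbours without overlap. In MCC950-treated mice *Col4a2* led at 6.43 CPM per kb ± 1.05 (SD, n = 8), *Col4a3* was 6th at 4.68 ± 1.24, and every gene overlapped its neighbour. *Col4a5* was last in all 3 groups.

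Ratios within a library do not depend on its depth, and they are described here first for chains of one trimer. Differences in them between groups were not tested, and no share over other pairs of genes was counted. The ratio of *Col4a3* to *Col4a4*, per kilobase, was 1.07, 1.15 and 1.39 (lowest, median and highest) in young mice, 0.738, 0.807 and 0.881 in saline-treated mice and 0.839, 0.960 and 0.997 in MCC950-treated mice. It was above 1 in every young library and below 1 in all 15 others, so neither middle-aged group overlapped the young group, and 6 of 8 MCC950 libraries were above the highest saline library. Of the exon bases of *Col4a3*, 5.65% (563 bases) overlap the antisense gene *C430014B12Rik*, which is not among the genes named in the count tables. No strand setting is given in the sources used here, so reads from that gene cannot be told apart from those of *Col4a3*.

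The other ratios overlapped between groups. The ratio of *Col4a5* to *Col4a4*, of the same trimer, was 0.295 to 0.385 in young mice, 0.252 to 0.326 in saline-treated mice and 0.187 to 0.318 in MCC950-treated mice. For it, 3 of 7 saline and 7 of 8 MCC950 libraries were below the lowest young library. The ratio of *Col4a1* to *Col4a2* was 0.972 to 1.25 in young mice, 0.928 to 1.04 in saline-treated mice and 0.865 to 1.08 in MCC950-treated mice. *Col4a3*, *Col4a4* and *Col4a5* summed over *Col4a1* and *Col4a2* had a median of 0.889, 0.900 and 0.895 in the same order. The ranges of this ratio between the mature and the general chains overlapped, at 0.591 to 1.02, 0.796 to 1.03 and 0.677 to 1.00. *Lamb2* to *Lamc1* was 1.98 to 2.90, 1.58 to 2.26 and 1.55 to 2.33, and 5 of 7 saline libraries were below the lowest young one. *Lama5* to *Lamc1* was 1.28 to 1.78 in young mice (median 1.56), 1.23 to 2.38 in saline-treated mice (1.55) and 1.38 to 2.22 in MCC950-treated mice (1.76). *Agrn* to *Nid1* was 1.40 to 2.90 in young mice, 2.80 to 6.17 in saline-treated mice and 2.35 to 4.44 in MCC950-treated mice, with 5 of 7 saline libraries above the highest young one. No test was run on the ratios.

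**Figure D3:**
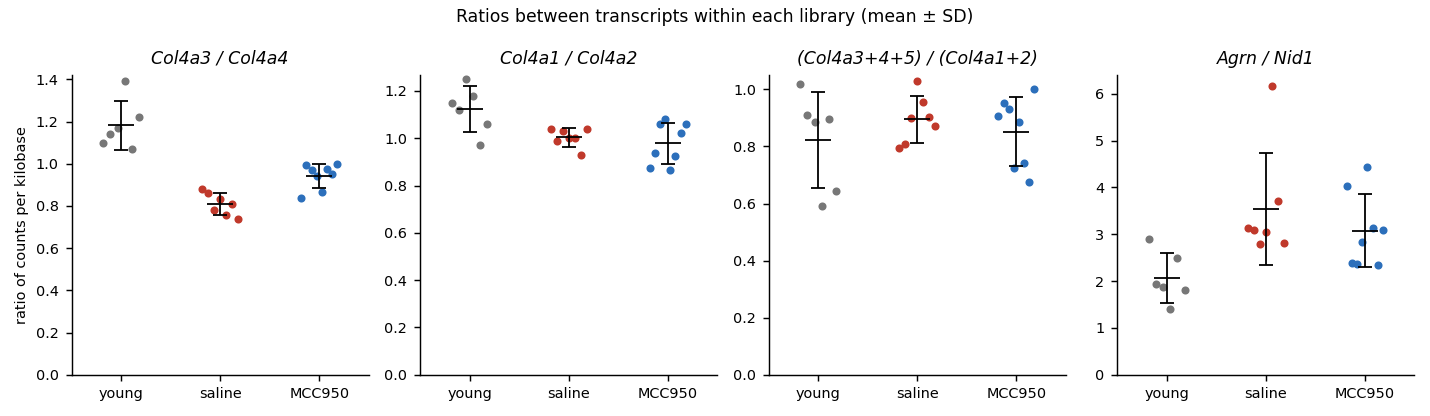
Ratios of member genes, per kilobase of exon, in each library of the 3 groups, with the ratio on the vertical axis and the mean ± SD in black. The young libraries lie above 1 for *Col4a3* to *Col4a4* (1.07 to 1.39) and all middle-aged libraries lie below 1.

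The 10 genes were also compared among libraries of one group. Each library's log2 CPM was set against its group mean, and MCC950 replicates 2 and 3 were above it for all 10 genes, with a median deviation of 0.36 in each. MCC950 replicate 7 was below it for all 10 (median −0.50), as were saline replicate 2 (−0.32) and young replicate 5 (−0.27), and saline replicate 4 was above it for all 10 (0.17). The podocyte marker sum did not follow this pattern in each of these libraries. It was 741 and 698 CPM in MCC950 replicates 2 and 3, 617 CPM in saline replicate 4, each at the top of its group, and 853 CPM in young replicate 5, the lowest of its group. In the libraries that were low for all 10 genes in the middle-aged groups it was near the median, at 583 CPM in MCC950 replicate 7 (group median 565 CPM) and 502 CPM in saline replicate 2 (506 CPM). Endothelium sums were 350, 440 and 264 CPM in MCC950 replicates 2, 3 and 7 (group median 267 CPM). They were 413 and 300 CPM in saline replicates 4 and 2 (344 CPM) and 491 CPM in young replicate 5 (766 CPM). The mesangium and smooth muscle sum was lowest of its group in MCC950 replicate 7 (68.7 CPM) and highest in saline replicate 4 (131 CPM). The proximal tubule sum was lowest of the group in both, at 3432 and 2168 CPM. The part of these sums in the pattern was not tested. Pearson's r of these deviations over the 21 libraries ran from 0.199 to 0.932 in the 45 pairs of members, with a median of 0.679. The values of a pair share their library and its depth, and r was not summarized over pairs of other genes, so they are given as a description.

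**Figure D4:**
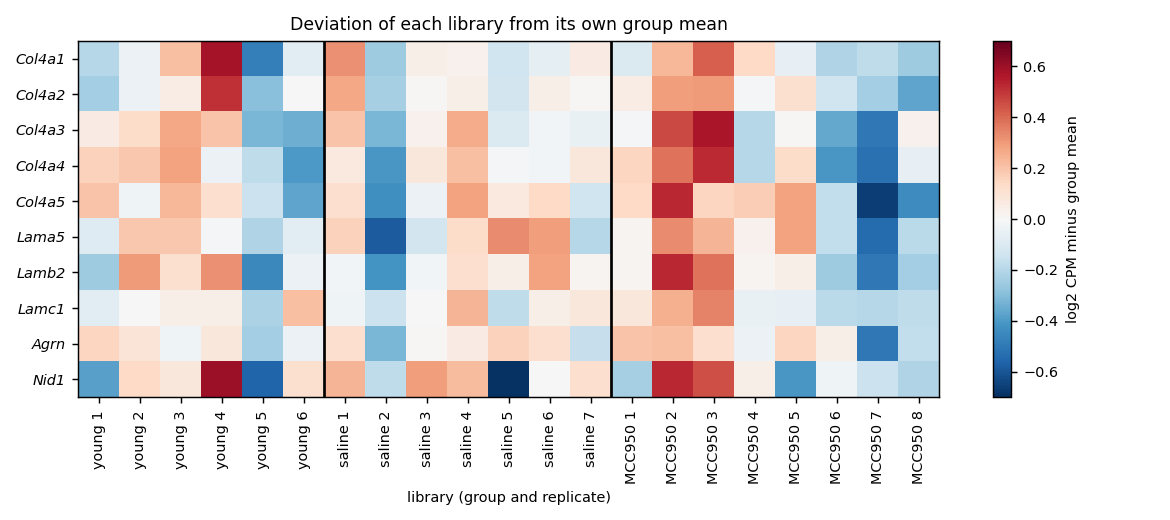
Deviation of log2 CPM from the group mean for each of the 10 genes (rows) in each of the 21 libraries (columns), with red for above and blue for below the mean. Columns of 1 colour are seen for MCC950 replicates 2, 3 and 7, saline replicates 2 and 4 and young replicate 5.

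Among 12263 genes of at least 1 in mean log2 CPM, the gene most like *Col4a3* over the 21 libraries was its neighbour *Col4a4* (r = 0.932). *Pls3* (r = 0.927), which encodes the actin-bundling plastin-3, *Pard3b* (0.910), *Armcx4* (0.906) and *Sema5a* (0.899) followed. The gene most like *Col4a1* was likewise its neighbour *Col4a2* (r = 0.912), and after it came *Vcl* (0.907), which encodes vinculin of cell adhesions, *Zfp462* (0.852), *Actn4* (0.847), an actin crosslinker of the podocyte foot process, and *2310022B05Rik* (0.838). These r are descriptions of deviations within groups.

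Some other basement membrane genes were also lower in saline-treated than in young mice. In a list of 26 other basement membrane genes, 25 passed the filter on low counts (*Hmcn1* did not), and 12 fell and 1 rose in saline-treated mice, with a median log2 fold change of −0.39. The other 12 were not called. Over all genes tested, 12.4% were called lower and 12.2% higher in this comparison. Podocyte, endothelium and mesangium markers were lower in it too. Of 7 fibroblast markers, 3 were higher (*Lum*, *Col1a1* and *Dcn*) and 2 lower (*Col1a2* and *Pdgfra*). Their sums were 10.9 to 17.2 CPM in young mice and 7.24 to 20.8 CPM with saline, and *Lum* was at 0 in young replicates 1, 2 and 6. The part of these marker shifts in the values of the list was not tested. *Sparc*, a collagen-binding matricellular protein, fell by 1.19 on the log2 scale (SE 0.19, adjusted p = 0.000148), *Npnt*, nephronectin, by 1.07 (SE 0.15, adjusted p = 5.13e-05), and the laminin chain *Lama4* by 1.05 (SE 0.22, adjusted p = 0.00138). *Fbln1*, fibulin-1, rose by 2.55 (SE 0.66, adjusted p = 0.00752) from a low level of 0.198 ± 0.201 CPM (SD, n = 6) to 1.06 ± 0.816 CPM (SD, n = 7). Of 12 receptors for matrix, 7 fell and 1 rose, with a median of −0.31. Those that fell most were the collagen receptor subunit *Itga2* (−1.84, at 0.452 ± 0.295 and 0.123 ± 0.0782 CPM), *Itga3* (−1.13, SE 0.17, adjusted p = 7.67e-05), which forms the laminin-binding integrin of podocytes, and dystroglycan, *Dag1* (−0.71, SE 0.13, adjusted p = 0.000732), while the syndecan *Sdc1* rose by 0.61 (SE 0.18, adjusted p = 0.0175).

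With MCC950, 4 of the 25 basement membrane genes fell and 1 rose against saline, with a median of −0.19. Over all genes tested, 4.86% were called lower and 11.9% higher. *Fbln2* (−1.01, SE 0.19, adjusted p = 0.00301), *Col4a6* (−0.88, SE 0.28, adjusted p = 0.0384), which encodes the remaining collagen IV chain, and *Lamc3* (−0.63, SE 0.15, adjusted p = 0.00913) fell. Levels of *Col4a6* were low, at 0.841 ± 0.374 CPM (SD, n = 8) with MCC950 and 1.55 ± 0.481 CPM (SD, n = 7) with saline. Those of *Lamc3* were low as well, at 0.99 ± 0.23 CPM and 1.53 ± 0.172 CPM in the same order. *Tinag*, an antigen of the tubular basement membrane, rose by 0.82 (SE 0.21, adjusted p = 0.0128) beside the proximal tubule markers. Of the receptors, *Itgb4* (−0.65), *Sdc1* (−0.65) and the laminin receptor *Bcam* (−0.40) fell and none rose, with a median of −0.05. Against the young mice, 16 of the 25 basement membrane genes were lower and 1 was higher with MCC950 (median −0.79), and 8 of 12 receptors were lower and none was higher (median −0.40). Over all genes tested, 16.5% were called lower and 21.8% higher in that comparison.

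**Figure D5:**
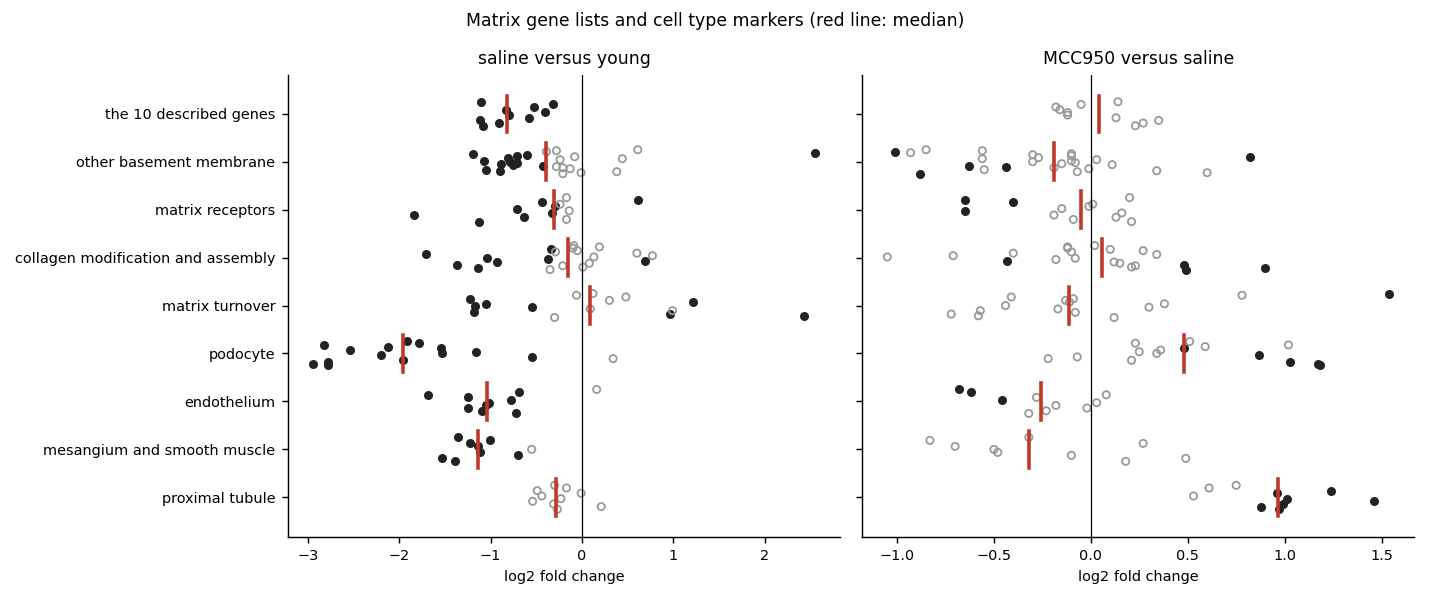
Log2 fold change (horizontal axis, on a different scale in each panel) of every tested gene of the 10 members, the 4 lists of matrix genes and 4 lists of cell type markers, for saline against young and MCC950 against saline, with filled points for an adjusted p under 0.05 and a red line at the list's median. In saline-treated mice all 10 members, 12 of 25 other basement membrane genes and 7 of 12 receptors are filled below zero, while with MCC950 these are 0, 4 and 3. Over all genes tested, 12.4% and 4.86% were called lower in these comparisons.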

How the data were processed

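Raw counts per gene of the 21 libraries were used as deposited. The authors trimmed reads with Trim Galore, aligned them to mm10 (GRCm38) with Bowtie2 and counted with featureCounts, with no versions given in the sources used here. The deposited table of DESeq2-normalized values was not used. Samples were grouped by their labels. Counts were scaled by TMM, filtered by filterByExpr and tested in one fit of all 3 groups with edgeR 4.0.16 (quasi-likelihood F test, Benjamini-Hochberg over 16377 genes), in R 4.3.3. The threshold was an adjusted p of 0.05. DESeq2 1.42.0, other scalings and filters, a replicate block and each library left out were the alternatives. The fit was tested on simulated data. CPM used TMM library sizes, and exon lengths came from GENCODE for GRCm38. No pair of libraries of the same group agreed within sampling noise, and pairs across groups were not checked. Of the gene numbers, 1904 matched no symbol in RefSeq and stayed in the fit. The 10 genes and the lists were chosen with earlier results of these data known. Named were all members, up to 3 genes per list, comparison and direction by fold change among those called, and 5 genes most like *Col4a3* and *Col4a1*.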

Additional observations from a re-analysis of the deposited data

Results flagged for a closer look

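Values in each group of libraries were screened for one library standing far from the others, over 51 sets of values from the 10 genes and their ratios, and 3 were marked. Chance marks about 1 set in 20. *Col4a2* was at 92.6 CPM in young replicate 4, above the other 5 young libraries. *Col4a4* was at 35.8 CPM in saline replicate 2, below the other 6 saline libraries, and that library was below its group mean for all 10 genes. The ratio of *Agrn* to *Nid1* was 6.17 in saline replicate 5, the library with the lowest podocyte marker sum (325 CPM). Without any one of these libraries, *Col4a2*, *Col4a4*, *Agrn* and *Nid1* kept their calls in the comparison of saline with young mice.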

How the results depend on the processing

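At the study's threshold (unadjusted p of 0.05 with more than a 2-fold change) in the edgeR fit, 3 of the 10 genes in place of 10 were lower in saline-treated than in young mice (2.92% of all genes tested were), and 0 in place of 10 in MCC950-treated than in young mice. With DESeq2, the study's tool, at that threshold, chosen after seeing the data, these were 3 and 2. The 4 matrix lists held 25, 12, 20 and 15 tested genes. The matrix list genes called at that threshold, by either tool, were 16 in place of 37 for saline against young, 3 in place of 13 for MCC950 against saline, and 19 in place of 39 for MCC950 against young. At an adjusted p of 0.05, DESeq2 called 21 of these genes for MCC950 against saline. Shares of all genes called in either direction were not counted in these settings, so the list counts here and below are given as a description. Leaving out 1 library at a time gave 8 to 10 members lower in saline-treated mice, 10 in MCC950-treated against young mice, and 0 to 1 members higher and 10 to 20 list genes called for MCC950 against saline (20 without MCC950 replicate 6). The difference in *Agrn* between MCC950 and saline ranged from −0.11 to 0.01, with the turn in sign without MCC950 replicate 7. The cause of these changes was not tested.

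The replicate numbers were not treated as pairs. The correlation of deviations between libraries of one number ran from −0.0614 to 0.347 for saline and young and from −0.144 to 0.335 for MCC950 and saline, and 2 of 6 saline and 2 of 7 MCC950 libraries correlated best with their own number. With the replicate number as a block, 8 members were lower in saline-treated mice, *Lama5* (−0.34, adjusted p = 0.1) and *Agrn* (−0.27, adjusted p = 0.0553) losing their calls, and 20 list genes were called for MCC950 against saline. Size factors by RLE, a minimum of 10 counts in every library, mitochondrial genes left out and fits of only 2 groups changed no call of a member. The lowest count of a member in any library was 247, and no fit at matched depth was run.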

Other observations

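The enzymes that modify and crosslink collagen were not part of the comparisons above. Of 21 such genes, 20 passed the filter (*P4ha3* did not), and 7 fell and 1 rose in saline-treated against young mice, with a median log2 fold change of −0.16. The shares over all genes tested were 12.4% lower and 12.2% higher. *Loxl2*, a lysyl oxidase that crosslinks collagen IV, went from 7.15 ± 3.12 CPM (SD, n = 6) to 2.19 ± 0.637 CPM (SD, n = 7), a log2 fold change of −1.71 (SE 0.26, adjusted p = 0.000111). The lysyl hydroxylase *Plod2* (−1.37, SE 0.15, adjusted p = 7.17e-06) and the prolyl hydroxylase subunit *P4ha2* (−1.14, SE 0.15, adjusted p = 3.4e-05) fell as well, and the collagen galactosyltransferase *Colgalt1* rose by 0.69 (SE 0.14, adjusted p = 0.000956). Under MCC950 3 of these 20 genes rose and 1 fell against saline (median 0.06). These counts were near the shares over all genes tested, 11.9% higher and 4.86% lower, so they are given as a description. Those that rose were *P4ha2* (0.90, SE 0.14, adjusted p = 0.000979), *P4ha1* (0.49, SE 0.14, adjusted p = 0.0257) and *Plod2* (0.48, SE 0.14, adjusted p = 0.0236), and *Colgalt1* fell by 0.43 (SE 0.12, adjusted p = 0.0233). Both comparisons use the same saline libraries.

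Of 17 genes of matrix turnover, 15 passed the filter (*Mmp3* and *Mmp7* did not), and 3 rose and 5 fell in saline-treated against young mice, with a median of 0.09. Over all genes tested, 12.2% were called higher and 12.4% lower. The gelatinase *Mmp9* rose from 0.538 ± 0.272 CPM (SD, n = 6) to 2.98 ± 1.30 CPM (SD, n = 7), a log2 fold change of 2.43 (SE 0.46, adjusted p = 0.00068), with heparanase, *Hpse* (1.21, SE 0.30, adjusted p = 0.00595), and the membrane protease *Mmp14* (0.96, SE 0.29, adjusted p = 0.0179). Tissue plasminogen activator, *Plat* (−1.22, SE 0.24, adjusted p = 0.001), *Mmp15* (−1.18, SE 0.19, adjusted p = 0.000155) and *Timp4* (−1.17, SE 0.41, adjusted p = 0.0415) fell. The level of *Timp4* was very low, at 0.298 ± 0.0883 CPM (SD, n = 6) in young mice and 0.128 ± 0.0847 CPM (SD, n = 7) with saline. In the same comparison, 3 of 9 macrophage and myeloid markers were higher (sums of 444 to 2069 CPM in young mice and 1565 to 3742 CPM with saline, with no marker at 0). So were 4 of 6 lymphocyte markers (sums of 33.9 to 125 CPM and 378 to 521 CPM, with *Cd3d* at 0 in young replicate 5). The part of these marker shifts in the turnover genes was not tested. Under MCC950 only *Mep1b*, a meprin of the proximal tubule brush border, was called in this list, with a rise of 1.54 (SE 0.35, adjusted p = 0.0083) against saline. Over all genes tested, 11.9% were called higher and 4.86% lower there.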
